A study of Mus musculus with 16 samples.

Results

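Transcripts of the enzymes of glycolysis, the pyruvate dehydrogenase complex with the TCA cycle, and the pentose phosphate pathway were examined in 4 subpopulations of cMyc+ LZ B cells of the mouse spleen. The members were a named list of 39 genes, all of them found by symbol among the 51912 genes of the table, with 15 genes of glycolysis, 17 of pyruvate dehydrogenase and the TCA cycle and 7 of the pentose phosphate pathway. Total RNA was sequenced in 16 libraries, 4 per subpopulation, numbered 1 to 4.

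The cells came from male and female cMyc gfp/gfp mice, 6 to 15 weeks old, in which a GFP-cMyc fusion protein is made from the endogenous locus, and this reporter was carried by every group compared. Mice received SRBC intraperitoneally, and on day 7 splenic B cells were enriched by removal of CD43-positive cells and sorted as B220+ CD38low CD95+ cMycGFP+. Within this gate cMyc+prePB was CD69hi, cMyc+early was CD23hi CD21/35hi, cMyc+lateCD23int was CD23int CD21/35int and cMyc+lateCD23lo was CD23lo CD21/35lo. GC B cells without cMyc-GFP and the cMyc+ DZ subpopulation were not part of the comparison. The paper gated cMyc+prePB without the DZ and LZ markers and found these cells mostly, but not all, in the LZ gate. It set cMyc+ DZ cells aside before it gated the other subpopulations. The labels do not say how many mice gave each library, so p-values measure the spread between these libraries, which may be technical. In bulk samples, fewer cells that carry a transcript and less of it per cell cannot be told apart.

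Glycolysis turns glucose into pyruvate in the cytosol, and lactate dehydrogenase turns pyruvate into lactate. Pyruvate dehydrogenase carries pyruvate into the mitochondrial TCA cycle as acetyl-CoA, and the pentose phosphate pathway branches from glucose phosphate to make NADPH and ribose for nucleotides. MYC is known to bind E-box sequences at many genes of these pathways, and GC B cells that receive T cell help turn on cMyc and grow before they divide.

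The MYC E-box was therefore looked up in the promoters of the members, as 250 bases before each annotated RefSeq start in GRCm38.p6. A promoter was listed for 38 of the 39 members, with *Idh3a* missing from the table. The palindrome CACGTG was found for 3 of these 38 genes (7.89%), against 6.86% of 27025 genes with a promoter. The shorter string ACGTG on either strand was found for 11 of 38 (28.9%) against 18.5% of all genes. Every CACGTG also holds this string, but by itself it is not the E-box, so these are not counts of E-boxes. The shares are per gene, with 55 promoters for the 38 members and 32851 for the 27025 genes. The number of windows searched per gene thus differed, and this was not adjusted for. All windows with CACGTG are shown, because they belong to a lactate dehydrogenase gene with a pair of such sites, a TCA cycle enzyme and the rarest phosphofructokinase of these cells. Each run holds 60 bases on the plus strand, with the E-box in capitals. The *Ldha* windows lie at chr7:46845632-46845691 and chr7:46845729-46845788, where the E-boxes begin at positions -145 and -48 from the start. The *Ogdh* windows lie at chr11:6292390-6292449 and chr11:6292033-6292092, which belong to different annotated starts, and the *Pfkm* window lies at chr15:98092426-98092485, with its E-box at position -136.
Ldha, first window: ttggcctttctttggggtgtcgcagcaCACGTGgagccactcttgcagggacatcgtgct
Ldha, second window: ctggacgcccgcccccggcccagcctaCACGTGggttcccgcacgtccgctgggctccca
Ogdh, first window: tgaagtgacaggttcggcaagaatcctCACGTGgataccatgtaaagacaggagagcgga
Ogdh, second window: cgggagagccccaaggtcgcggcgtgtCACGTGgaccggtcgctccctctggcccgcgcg
Pfkm: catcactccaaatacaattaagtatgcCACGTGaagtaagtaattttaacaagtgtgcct
A match is a string of letters in this window and was not tested for binding.

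The 4 libraries numbered 1 stood apart from the other 12 in the members, as described below by gene. All tests were also run without them, and log2 fold changes of members named below are given both ways where they changed by over 1.5 times or changed sign. Values are normalized counts, that is, reads per gene divided by the size factor of the library. Whole reads could be recovered from them, with 19812080 to 25795815 reads per library, and correlations of log2 values between libraries ran from 0.825 to 0.916. All 6 B cell markers and all 8 GC B cell markers of the lists checked were above 3 reads in all 16 libraries. Of the T cell markers, *Cd3e*, *Cd3g*, *Cd4*, *Cd8a* and *Il7r* were at or under 3 reads in at least 13 libraries. *Trac* was above 3 reads in all 16 libraries (11.6 to 110 normalized counts) and *Cd3d* in 12 (highest 73.9). *Lck*, which B cells can also express, made up most of the summed T cell list (2195 to 7045 normalized counts). The part of T cell transcripts in the results was not tested. The plasma cell list summed to between 37257 and 111290 for cMyc+prePB, 23488 and 30149 for cMyc+early, 31588 and 59105 for cMyc+lateCD23int and 56149 and 90119 for cMyc+lateCD23lo, most of it *Jchain*, and *Prdm1* reached at most 133. The myeloid list summed to between 204 and 1447 and the erythroid list to between 165 and 4954 over all libraries, and their part in the results was not tested. *Cd69*, the transcript of the marker that defines the cMyc+prePB gate, had means of 3453 ± 1297 normalized counts for cMyc+prePB and 3762 ± 1766 for cMyc+lateCD23int (SD, n = 4), so its RNA did not set cMyc+prePB apart.

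Most members were abundant. Of the 39 genes, 37 were above 3 reads in all 16 libraries, and 38 reached the mean of 10 normalized counts that was required for a test. Per kb of protein-coding transcript, the most abundant was the mitochondrial malate dehydrogenase *Mdh2*, with a mean level of 18883 normalized counts per kb over the libraries. It was followed by *Ldha* with 15865, the enolase *Eno1* with 13100 and the cytosolic malate dehydrogenase *Mdh1* with 12923. Next came the pyruvate kinase *Pkm* with 12860 and the aldolase *Aldoa* with 10534. This order depends on the length used, for example a mean of 1027 bases for *Pkm*, whose longest protein-coding transcript has 2432. The lowest of the tested members was *Pfkm*, at 12.2 per kb. The entry enzymes of the pathways stood far below the enzymes of lower glycolysis, with 327 per kb for the hexokinase *Hk2* and 236 for the glucose-6-phosphate dehydrogenase *G6pdx*.

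In each family of isozymes the same gene had the highest mean share in all 4 subpopulations. *Ldha*, the form that favors lactate, made up 99.998% ± 0.005 (SD, n = 16) of the length-scaled lactate dehydrogenase counts. *Ldhb*, the form that favors pyruvate, was at 0 reads in 14 libraries and at 2 reads in the other 2, cMyc+lateCD23int replicate 3 and cMyc+lateCD23lo replicate 4. The platelet form of phosphofructokinase, *Pfkp*, held 80.3% ± 8.9 of its family, from 66.5% to 92.5% in single libraries, *Pfkl* held 19.1% ± 9.4 and *Pfkm* 0.647% ± 0.928. *Hk2*, the inducible hexokinase, held 78.1% ± 15.9 of the length-scaled hexokinase counts, but its share in single libraries ran from 45.4% to 99.0%. This share depends on the scaling, by a mean transcript length of 1244 bases for *Hk1* and 2937 for *Hk2*. In cMyc+lateCD23int replicate 3, with the lowest share, the unscaled normalized counts were 666 for *Hk2* and 339 for *Hk1*. The hexokinase share was 64.1% ± 16.7 (SD, n = 4) in cMyc+lateCD23int and 79.4% ± 15.1 to 87.0% ± 14.7 in the other 3, with overlapping libraries. *Sucla2* held 83.6% ± 4.7 of the beta subunits of succinate-CoA ligase, the remainder being *Suclg2*.

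Which enzymes differed between the subpopulations was asked with 1 limma model over all 16 libraries, on log2(normalized count + 1), with Benjamini-Hochberg adjustment over the 12505 genes tested. None of the 38 members had an adjusted p-value under 0.05 in the F test over the 4 subpopulations, in which 0.408% of all tested genes did. An unadjusted p-value under 0.05 was reached by 5 members, against 10.2% of all genes. These were *Hk2*, *Pgls*, *Pfkp*, *Pfkm* and *Mdh1*, with unadjusted p-values of 0.0138 to 0.0498 and adjusted p-values of 0.343 to 0.492. The quasi-likelihood test of edgeR and the likelihood ratio test of DESeq2 on the recovered reads also called 0 members in this comparison.

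The pairwise comparisons gave the same count of 0 for the members in limma and in edgeR. Between cMyc+prePB and cMyc+early, 2 of 38 members reached an unadjusted p-value under 0.05, against 8.58% of all genes, and 0.192% of all genes were called after adjustment. Between cMyc+early and cMyc+lateCD23int the numbers were 3 members, 3.71% and 0.008%. Between cMyc+lateCD23int and cMyc+lateCD23lo they were 1 member, 6.28% and 0.008%, and between cMyc+early and cMyc+lateCD23lo 3 members, 10.3% and 0.28%. Between cMyc+prePB and cMyc+lateCD23int they were 4 members, 8.77% and 0.144%. The largest number was found between cMyc+prePB and cMyc+lateCD23lo, where 7 of 38 members passed without adjustment, 6 of them higher in cMyc+prePB, against 12.7% of all genes, with 0.264% called. For cMyc+prePB against the mean of the other 3, 6 members passed without adjustment, all higher in cMyc+prePB, against 11.1% of all genes, with 0.312% called. DESeq2 called 1 member in each of 3 comparisons, which were *Pfkm* between cMyc+early and cMyc+lateCD23lo (1.36% of all genes called), *Hk2* between cMyc+prePB and cMyc+lateCD23int (1.04%) and *Pgls* between cMyc+prePB and cMyc+lateCD23lo (2.16%).

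The fit was repeated without the 4 libraries numbered 1, a setting added after the data were seen. Again none of the 38 members was called in any of the 8 tests, with a smallest adjusted p-value of 0.0553, for *Pgls* between cMyc+prePB and cMyc+lateCD23lo. More members passed without adjustment in 7 of the 8 tests. In the F test there were 13, against 13.6% of all genes, 7 of them of glycolysis (*Hk2*, *Pfkl*, *Pfkp*, *Tpi1*, *Pkm*, *Pfkm* and *Ldha*). For cMyc+prePB against the other 3 there were 10, 9 of them higher in cMyc+prePB, against 13.6% of all genes, and all 7 glycolysis genes among them were higher (*Hk2*, *Pfkl*, *Pfkp*, *Gapdh*, *Eno1*, *Pkm* and *Ldha*). Between cMyc+prePB and cMyc+lateCD23lo there were 11 (17.8% of all genes), and between cMyc+prePB and cMyc+lateCD23int 9 (9.85%). The other comparisons gave 3 members for cMyc+prePB with cMyc+early (8.87%), 2 for cMyc+early with cMyc+lateCD23int (3.86%), 7 for cMyc+lateCD23int with cMyc+lateCD23lo (10.1%) and 5 for cMyc+early with cMyc+lateCD23lo (13.3%).

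**Figure D1:**
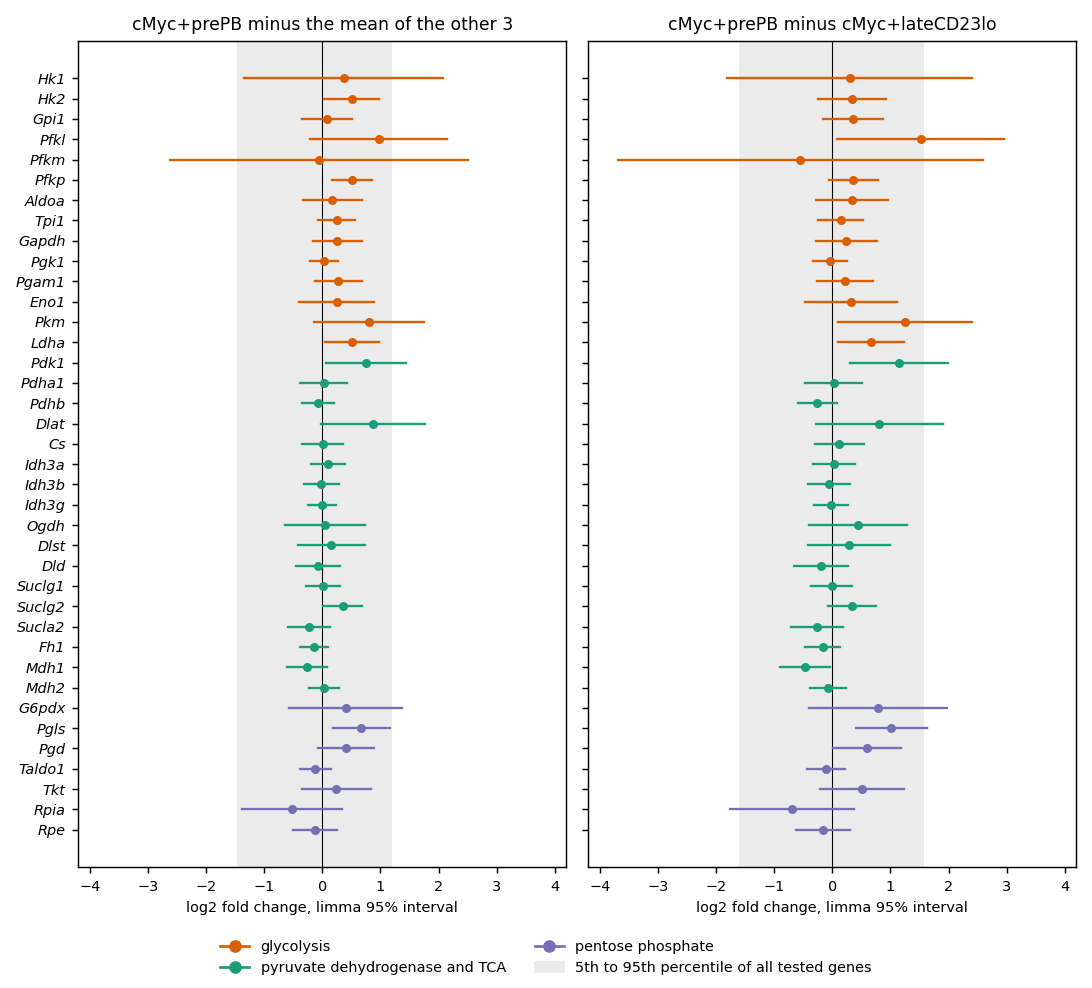
Log2 fold changes of the 38 tested members with their 95% intervals from limma, for cMyc+prePB against the mean of the other 3 subpopulations (left) and against cMyc+lateCD23lo (right), colored by pathway. The gray band spans the 5th to 95th percentile of all 12505 tested genes, and every member lies inside it. The glycolysis genes lie to the right of 0 in 13 of 14 cases on the left and 12 of 14 on the right.

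The glycolysis members leaned toward cMyc+prePB without passing the test gene by gene. Against the mean of the other 3, 13 of the 14 tested genes had the higher mean in cMyc+prePB, with a median log2 fold change of 0.27, while 50.3% of all tested genes were higher, with a median of 0.003. The median was 0.25 against cMyc+early, 0.32 against cMyc+lateCD23int and 0.33 against cMyc+lateCD23lo, each with 12 of 14 genes higher in cMyc+prePB. These 4 comparisons share the cMyc+prePB libraries. The SD of the library medians within a subpopulation was 0.388 for glycolysis, which is above each of these medians. This SD describes single libraries and is not the standard error of a difference between subpopulation means. Without the 4 libraries numbered 1 the SD was 0.234 and the medians were 0.34, 0.37 and 0.34 in the same order and 0.36 against the other 3. The library medians, relative to the mean of each gene over all libraries, were 0.53, 0.41 and 0.45 in cMyc+prePB replicates 2 to 4, above the 0.35 of the next library, and -0.39 in replicate 1. The genes of the middle of the pathway had small differences from the other 3, with log2 fold changes of 0.03 for the phosphoglycerate kinase *Pgk1*, 0.08 for *Gpi1*, 0.17 for *Aldoa*, 0.25 for *Tpi1* and *Eno1*, 0.26 for *Gapdh* and 0.28 for *Pgam1*. Without the libraries numbered 1, *Gpi1* was at 0.28, *Eno1* at 0.39 and *Pgk1* at -0.07, and the other 4 were between 0.20 and 0.33.

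The hexokinase *Hk2*, on the minus strand of chromosome 6 (82725025 to 82774454, GRCm38), traps glucose in the cell and had the smallest F test p-value of the members. In the order of the library numbers, its normalized counts were 1004, 1566, 1119 and 1098 in cMyc+prePB, 1181, 718, 1472 and 881 in cMyc+early, 516, 659, 666 and 560 in cMyc+lateCD23int and 561, 844, 1218 and 1300 in cMyc+lateCD23lo. All cMyc+lateCD23int libraries lay below all libraries of cMyc+prePB and of cMyc+early, and they overlapped with cMyc+lateCD23lo. From cMyc+lateCD23int to cMyc+prePB the log2 fold change was 0.98 ± 0.28 (SE; limma adjusted p = 0.24, edgeR 0.231, DESeq2 0.0479), and between cMyc+early and cMyc+lateCD23int it was 0.78 ± 0.28 (limma adjusted p = 0.9999, unadjusted p = 0.0117). The other hexokinase, *Hk1*, was far lower, with 10.7, 120, 178 and 278 in cMyc+prePB, 5.24, 43.4, 30.8 and 191 in cMyc+early, 81.6, 59.0, 339 and 189 in cMyc+lateCD23int and 134, 75.8, 66.3 and 43.9 in cMyc+lateCD23lo. *Hk1* varied 64.8-fold between libraries, more within subpopulations than between them.

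Phosphofructokinase commits glucose to glycolysis, and its main gene here was *Pfkp* (chromosome 13, 6579768 to 6648777). Its counts were 3750, 4442, 4421 and 4225 in cMyc+prePB, 2270, 3031, 1869 and 3295 in cMyc+early, 2498, 3222, 3881 and 2991 in cMyc+lateCD23int and 2470, 4162, 3095 and 3594 in cMyc+lateCD23lo. Each cMyc+prePB library lay above each cMyc+early library, while the late subpopulations overlapped with both. From cMyc+early to cMyc+prePB the log2 fold change was 0.72 ± 0.20 (SE; limma adjusted p = 0.223, edgeR 0.274, DESeq2 0.0722). The liver form *Pfkl* had 389, 1585, 1928 and 1676 in cMyc+prePB, 282, 1343, 695 and 1787 in cMyc+early, 410, 275, 1768 and 926 in cMyc+lateCD23int and 126, 519, 649 and 680 in cMyc+lateCD23lo. The mean of *Pfkl* was thus lowest in cMyc+lateCD23lo, with a log2 fold change of 1.52 ± 0.68 from cMyc+prePB (limma adjusted p = 0.367), but the library numbered 1 of every subpopulation stayed at 410 or below.

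The muscle form *Pfkm* was barely expressed and had the most uneven values. Its counts were 98.9, 24.8, 0 and 0 in cMyc+prePB, 0, 0, 0 and 0.903 in cMyc+early, 17.9, 36.6, 43.6 and 39.04 in cMyc+lateCD23int and 80.8, 34.6, 1.02 and 1.02 in cMyc+lateCD23lo. All cMyc+early libraries were at or under 3 reads, and every cMyc+lateCD23int library was above, at least 12.0-fold higher on average when cMyc+early is set at the mean value of 3 reads per library, 2.85 normalized counts. The difference between cMyc+early and cMyc+lateCD23int had an unadjusted limma p-value of 0.00458 and an adjusted p of 0.9999. Exons of *Pfkm* overlap those of the more abundant *Senp1*, and nothing states that the counting used strand, so reads of the overlap cannot be told apart.

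*Ldha* (chromosome 7, 46841475 to 46855627), whose promoter holds the pair of E-boxes shown above, was second in level among the members. Its counts were 11966, 21875, 22242 and 24452 in cMyc+prePB, 9830, 17628, 12694 and 17653 in cMyc+early, 10780, 12344, 17081 and 20007 in cMyc+lateCD23int and 7533, 14566, 13155 and 15314 in cMyc+lateCD23lo. The library numbered 1 was the lowest of its subpopulation in all 4 cases, and the other 3 cMyc+prePB libraries lay above every other library. The log2 fold change from cMyc+lateCD23lo to cMyc+prePB was 0.67 ± 0.27 (SE; limma adjusted p = 0.307, and 0.0706 without the 4 libraries numbered 1). With the library number as a block, the adjusted p-value of *Ldha* was under 0.05 in limma and edgeR, as given in the part on processing. The labels do not say that the numbers pair the samples. *Pkm*, the pyruvate kinase that ends glycolysis, had means of 19099 ± 9726 for cMyc+prePB, 13612 ± 7266 for cMyc+early, 12598 ± 8783 for cMyc+lateCD23int and 7496 ± 3024 for cMyc+lateCD23lo (SD, n = 4). From cMyc+lateCD23lo to cMyc+prePB its log2 fold change was 1.25 ± 0.55 (limma adjusted p = 0.356, and 1.42 ± 0.42 with 0.0975 without the libraries numbered 1).

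**Figure D2:**
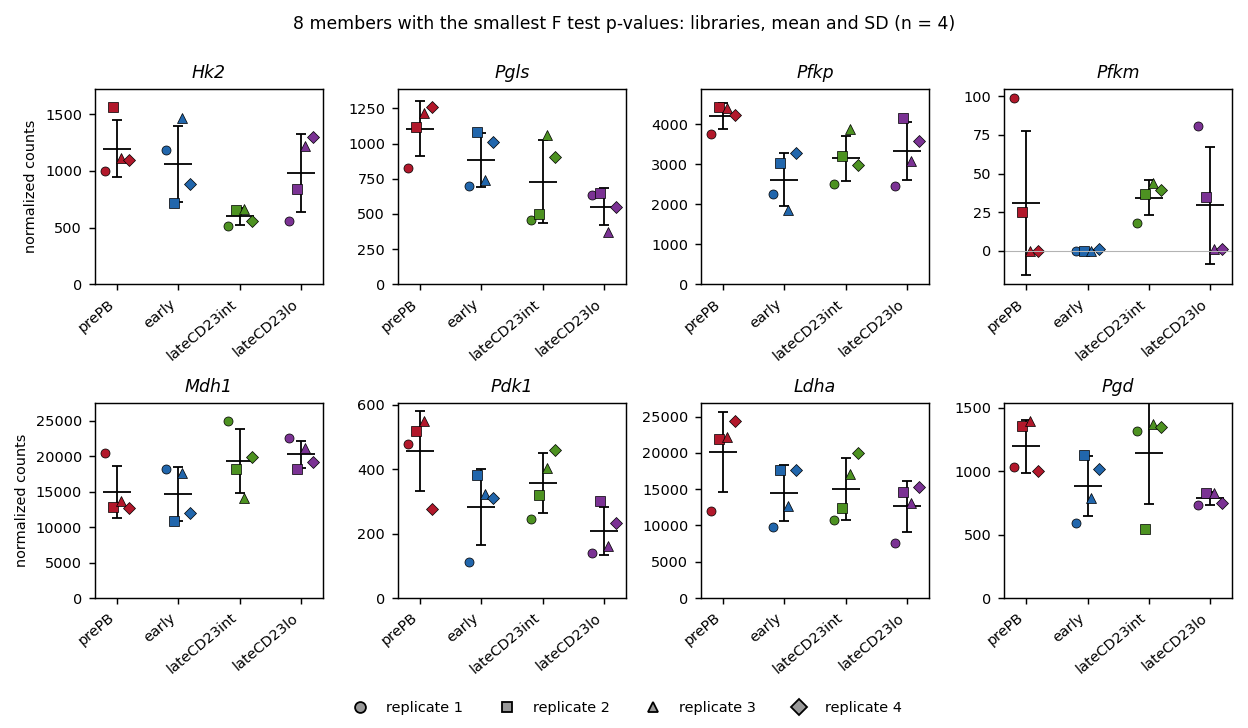
Normalized counts (linear axis from 0) of the 8 members with the smallest F test p-values in each of the 16 libraries, with the shape giving the library number and the bars the mean and SD of 4 libraries. *Hk2* is low in all cMyc+lateCD23int libraries, *Pfkp* is higher in each cMyc+prePB than in each cMyc+early library, and the library numbered 1 (circle) is the lowest of its subpopulation for *Ldha* and the highest for *Mdh1*.

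Genes of the pyruvate dehydrogenase complex and the TCA cycle were close to level. Against the other 3 subpopulations 10 of 17 genes were higher in cMyc+prePB, with a median log2 fold change of 0.006, and against cMyc+lateCD23lo 8 of 17 with a median of -0.01. The SD of the library medians within a subpopulation was 0.112, below those of glycolysis and of the pentose phosphate pathway (0.298). The steadiest members were the regulatory isocitrate dehydrogenase subunit *Idh3g*, between 3211 and 4438 normalized counts over the 16 libraries, and the fumarase *Fh1*, between 2372 and 3314. The log2 fold changes of *Pdha1*, *Pdhb*, *Cs*, *Idh3a*, *Idh3b*, *Idh3g*, *Ogdh*, *Dld*, *Suclg1* and *Mdh2* for cMyc+prePB against the other 3 lay between -0.08 and 0.10. Without the libraries numbered 1 they lay between -0.23 for *Dld* and 0.20 for *Pdha1*, and the medians of the 17 genes were -0.004 and -0.08. *Idh3a* had no overlap between cMyc+prePB (5605 to 6155) and cMyc+lateCD23int (4929 to 5487), as did *Hk2*, where 5.21% of all tested genes did so in either direction.

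Some members of this group differed by more, none of them past the threshold. *Ogdh*, a subunit of 2-oxoglutarate dehydrogenase, was 0.74 ± 0.40 higher on the log2 scale in cMyc+early than in cMyc+lateCD23lo (SE; limma adjusted p = 0.534). *Dlst*, its succinyltransferase, had a log2 fold change of -0.72 ± 0.33 between cMyc+early and cMyc+lateCD23int (0.9999). The pyruvate dehydrogenase kinase *Pdk1*, which switches the complex off, had 479, 519, 551 and 277 normalized counts in cMyc+prePB, 113, 382, 322 and 311 in cMyc+early, 246, 319, 405 and 459 in cMyc+lateCD23int and 139, 301, 161 and 232 in cMyc+lateCD23lo. In cMyc+prePB 3 of the 4 libraries exceeded every cMyc+lateCD23lo library, and the log2 fold change was 1.15 ± 0.40 (SE; limma adjusted p = 0.253). *Dlat*, the acetyltransferase core of the complex, was 0.88 ± 0.42 higher on the log2 scale in cMyc+prePB than in the other 3 (limma adjusted p = 0.452), with means of 875 ± 374 for cMyc+prePB and 431 ± 332 to 574 ± 298 for the others (SD, n = 4).

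*Mdh1* (chromosome 11, 21556787 to 21572367), the cytosolic arm of the malate shuttle, had lower means in cMyc+prePB and cMyc+early than in the late subpopulations. Its counts were 20368, 12878, 13696 and 12616 in cMyc+prePB, 18122, 10789, 17672 and 11956 in cMyc+early, 24988, 18146, 14023 and 19926 in cMyc+lateCD23int and 22497, 18134, 21109 and 19230 in cMyc+lateCD23lo. Every cMyc+lateCD23lo library exceeded every cMyc+early library, while 1 cMyc+prePB library, numbered 1, reached into the range of cMyc+lateCD23lo. The log2 fold change was -0.50 ± 0.20 between cMyc+early and cMyc+lateCD23lo (SE; limma adjusted p = 0.403) and -0.47 ± 0.20 between cMyc+prePB and cMyc+lateCD23lo (0.349). The mitochondrial *Mdh2* differed little between the same groups, with a log2 fold change of -0.07 ± 0.15 from cMyc+lateCD23lo to cMyc+prePB (-0.13 without the libraries numbered 1).

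The pentose phosphate pathway has an oxidative branch, which makes NADPH, and a non-oxidative branch, which rearranges sugars. Against cMyc+lateCD23lo the 3 oxidative enzymes were higher in cMyc+prePB, by a log2 fold change of 0.79 ± 0.57 (SE) for *G6pdx*, 1.02 ± 0.29 for the lactonase *Pgls* and 0.59 ± 0.28 for the phosphogluconate dehydrogenase *Pgd*. Of the non-oxidative enzymes, the transketolase *Tkt* was at 0.52 ± 0.34, the transaldolase *Taldo1* at -0.11 ± 0.16, the epimerase *Rpe* at -0.17 ± 0.22 and the ribose isomerase *Rpia* at -0.70 ± 0.51. Without the libraries numbered 1, *Rpia* was at -0.08 ± 0.49, *Tkt* at 0.82 ± 0.27, *Taldo1* at 0.08 ± 0.15 and *Rpe* at -0.26 ± 0.23, while the oxidative enzymes were at 1.099 ± 0.443 for *G6pdx*, 1.23 ± 0.30 for *Pgls* and 0.63 ± 0.32 for *Pgd*. None of these 7 had an adjusted p-value under 0.05 in limma in either setting. Between cMyc+lateCD23int and cMyc+lateCD23lo all 7 were higher in cMyc+lateCD23int, with a median log2 fold change of 0.20 and log2 fold changes of 0.04 to 0.51, where 51.2% of all tested genes were higher. Without the libraries numbered 1 the median was 0.32 and *Rpe* turned to -0.18.

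*Pgls* (chromosome 8, 71592176 to 71601092) had 829, 1117, 1215 and 1262 normalized counts in cMyc+prePB, 698, 1083, 743 and 1011 in cMyc+early, 455, 503, 1061 and 902 in cMyc+lateCD23int and 635, 652, 370 and 550 in cMyc+lateCD23lo. All libraries of cMyc+prePB and of cMyc+early lay above all cMyc+lateCD23lo libraries, and the adjusted p-values for cMyc+prePB against cMyc+lateCD23lo were 0.158 in limma, 0.171 in edgeR and 0.0411 in DESeq2. *Pgd* had 1036, 1355, 1398 and 1001 in cMyc+prePB, 594, 1126, 788 and 1020 in cMyc+early, 1317, 540, 1368 and 1352 in cMyc+lateCD23int and 736, 828, 827 and 749 in cMyc+lateCD23lo. Here too cMyc+prePB and cMyc+lateCD23lo did not overlap (limma adjusted p = 0.391). These were the only members without overlap in that comparison, where 6.56% of all tested genes had none.

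Groups without overlap were also counted in the remaining comparisons, among the 38 tested members. Between cMyc+prePB and cMyc+early this held for *Pfkp* alone, against 4.23% of all tested genes. Between cMyc+early and cMyc+lateCD23int it held for 3 of 38 members, a larger share than the 2.48% of all genes. *Hk2* was higher and *Pfkm* and *Rpia* were lower in cMyc+early. *Rpia* was at 100 to 347 normalized counts in cMyc+early and 348 to 459 in cMyc+lateCD23int. Between cMyc+early and cMyc+lateCD23lo it held for *Pgls*, *Mdh1* and *Pfkm*, against 6.23%, and between cMyc+lateCD23int and cMyc+lateCD23lo for 0 members, against 3.77%. For *Pfkm* this rested on 0.903 in cMyc+early replicate 4 against 1.02 in cMyc+lateCD23lo replicates 3 and 4. These values are under 3 reads, so that separation was not measurable.

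The libraries numbered 1 stood apart in every subpopulation. Members took 0.558% to 0.649% of the reads in the 4 libraries numbered 1 and 0.681% to 1.01% in the other 12, without overlap. The difference sat mainly in glycolysis, with 0.196% to 0.261% of the reads in the libraries numbered 1 and 0.291% to 0.601% in the others. The pyruvate dehydrogenase and TCA genes took 0.311% to 0.349% and 0.335% to 0.380%. The pentose phosphate genes took 0.0390% to 0.0475% and 0.0435% to 0.0768%, with overlap. The library numbered 1 was the lowest of its subpopulation in 57.9% of the 38 members taken in each of the 4 subpopulations, in 75% for glycolysis, 45.6% for pyruvate dehydrogenase and TCA and 53.6% for pentose phosphate, against 31.04% for all tested genes. It was the lowest in all 4 subpopulations for 8 members (21.1%, against 4.41% of all genes), which were *Pkm*, *Eno1*, *Aldoa*, *Ldha*, *Gapdh*, *Pgam1*, *Mdh2* and *Fh1*. The labels do not say what the number stands for.

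**Figure D3:**
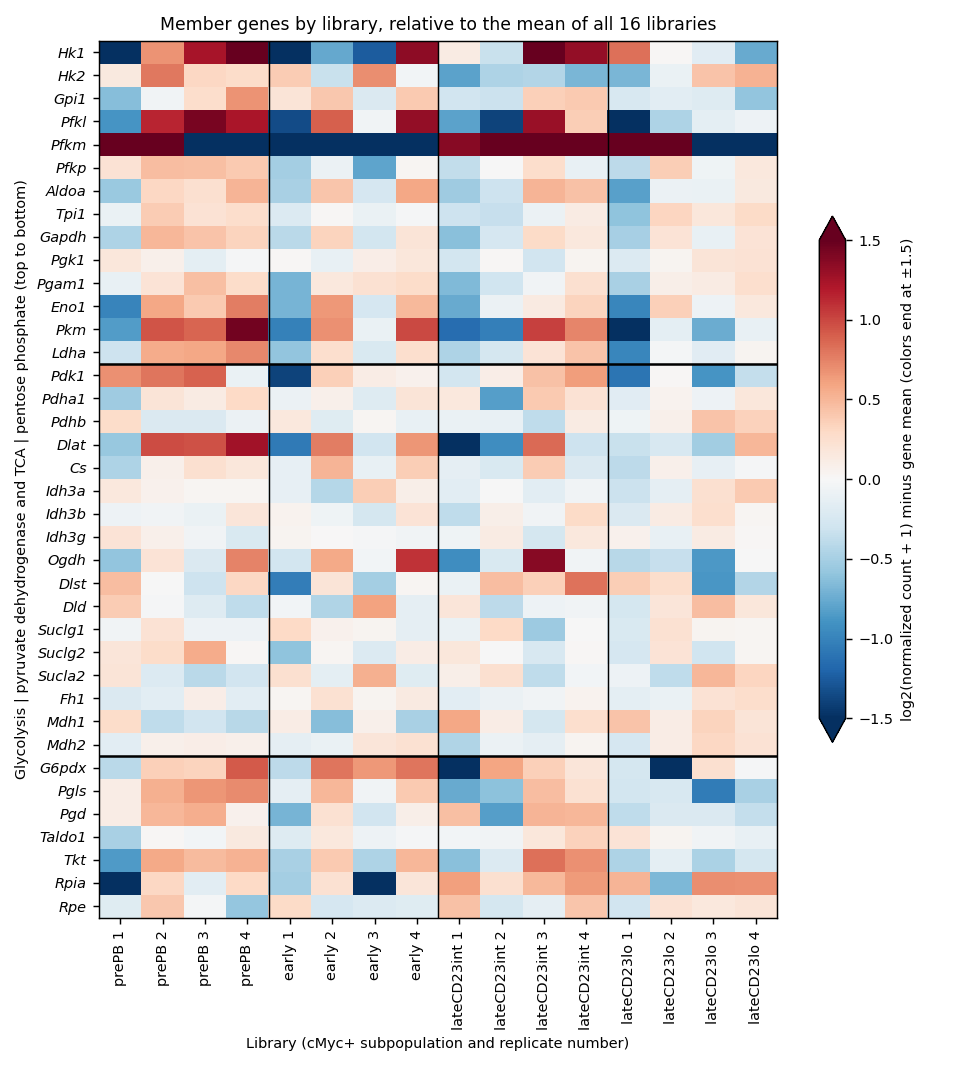
Log2(normalized count + 1) of each of the 38 tested members in each library, minus the mean of the gene over the 16 libraries, with colors ending at ±1.5. Columns are libraries by subpopulation and number, rows are genes in the order glycolysis, pyruvate dehydrogenase and TCA, pentose phosphate. The blue columns in the upper block are the libraries numbered 1, joined by cMyc+early 3 and cMyc+lateCD23int 2, and the middle block is pale.

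The size of this difference varied from gene to gene. The libraries numbered 1 were lower than numbers 2 to 4, on average over the subpopulations, by a log2 difference of -1.85 for *Pfkl*, -1.78 for *Hk1*, -1.52 for *Pkm*, -1.22 for *Dlat*, -1.14 for *Eno1*, -1.11 for *G6pdx*, -0.81 for *Tkt*, -0.80 for *Aldoa* and -0.78 for *Ldha*. They were higher by 0.46 for *Mdh1*, by 0.15 for *Sucla2* and by 1.91 for the barely expressed *Pfkm*, which was higher in cMyc+prePB and cMyc+lateCD23lo and lower in the other 2. The 19 members that were lowest in number 1 in at least 3 subpopulations had a median GC content of 53.8% in their protein-coding transcripts, and the 12 for which this held in at most 1 had 47.7%. The difference had a correlation of -0.27 with GC content over the 38 members and of -0.26 over the 10498 tested genes with a known GC content. Over the 28 members with a mean of at least 1000 it was -0.65, and over the 3501 genes at that level -0.32, across genes that share the same libraries. The share of reads from the mitochondrial genome was 1.83% to 2.95% in the libraries numbered 1 and 1.34% to 1.90% in the others. The part of base composition, RNA quality or the animals in this pattern was not tested.

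**Figure D4:**
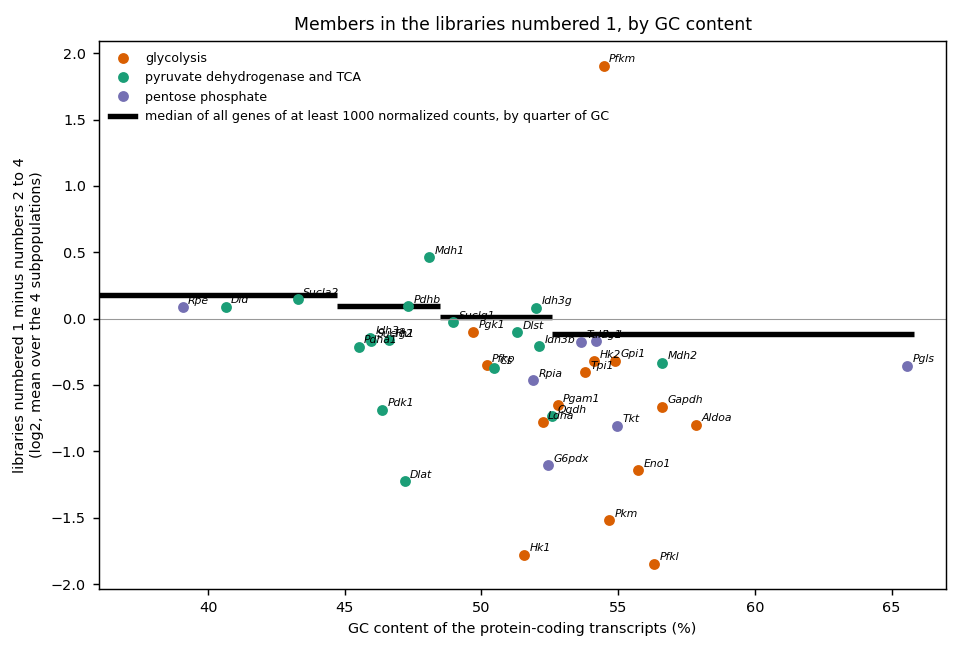
Difference of the library numbered 1 from the mean of numbers 2 to 4, averaged over the 4 subpopulations (log2), against the GC content of the protein-coding transcripts, for the 38 tested members by pathway. Black bars give the median of all genes with a mean of at least 1000 in each quartile of GC content, from 0.18 in the lowest to -0.12 in the highest, and many glycolysis members lie below them.

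*Myc* itself followed the same libraries. This relation was looked at after the values of the members had been seen. *Myc* had 2300, 4165, 4411 and 4417 normalized counts in cMyc+prePB, 1183, 3503, 1760 and 3563 in cMyc+early, 857, 1802, 3817 and 1839 in cMyc+lateCD23int and 1528, 1698, 1283 and 1198 in cMyc+lateCD23lo. Its mean was highest in cMyc+prePB, with a log2 fold change of 1.39 ± 0.39 (SE) from cMyc+lateCD23lo (limma adjusted p = 0.151, DESeq2 0.0116), and the library numbered 1 was the lowest in 3 of the 4 subpopulations.

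Across the 16 libraries, log2 *Myc* and the median of the glycolysis members had a Pearson r of 0.75 (permutation p = 0.00121, adjusted over 3 pathways 0.00363) and a Spearman rho of 0.80 (permutation p = 0.00024, adjusted 0.00072). The value of r was 0.68 without the 2 libraries farthest from the median of *Myc*, cMyc+prePB replicates 3 and 4, 0.71 over the 12 libraries numbered 2 to 4, and 0.75 for deviations from the subpopulation means. For the pentose phosphate members r was 0.69 (permutation p = 0.00463, adjusted 0.00694) and rho 0.61 (permutation p = 0.0137, adjusted 0.0206), with r at 0.63, 0.76 and 0.75 in the same 3 settings. For pyruvate dehydrogenase and TCA, r was 0.09 (permutation p = 0.737, adjusted 0.737) and rho 0.06 (permutation p = 0.822, adjusted 0.822). In the same 3 settings r was at 0.18, -0.60 and -0.001. The permutations treat the 16 libraries as independent and exchangeable, and the labels do not state that they are independent. The libraries fall into 4 subpopulations, and those numbered 1 share a shift, so these p-values may be too small.

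Gene by gene, an r over 0.5 with *Myc* was found for 10 of 14 glycolysis members, 4 of 7 pentose phosphate members and 4 of 17 of the others, against 15.35% of all tested genes. The members with the highest r were *Pgls* (0.89), *Dlat* (0.86), *Pkm* (0.82), *Tkt* (0.77), *Pfkl* (0.76) and *Ldha* (0.75), and those with the lowest were *Mdh1* (-0.88), *Sucla2* (-0.68) and *Pdhb* (-0.63). *Hk2*, with the smallest F test p-value, had an r of 0.19. Over the 28 members with a mean of at least 1000, r with *Myc* itself had a correlation of 0.70 with GC content, and the part of base composition was not tested.

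**Figure D5:**
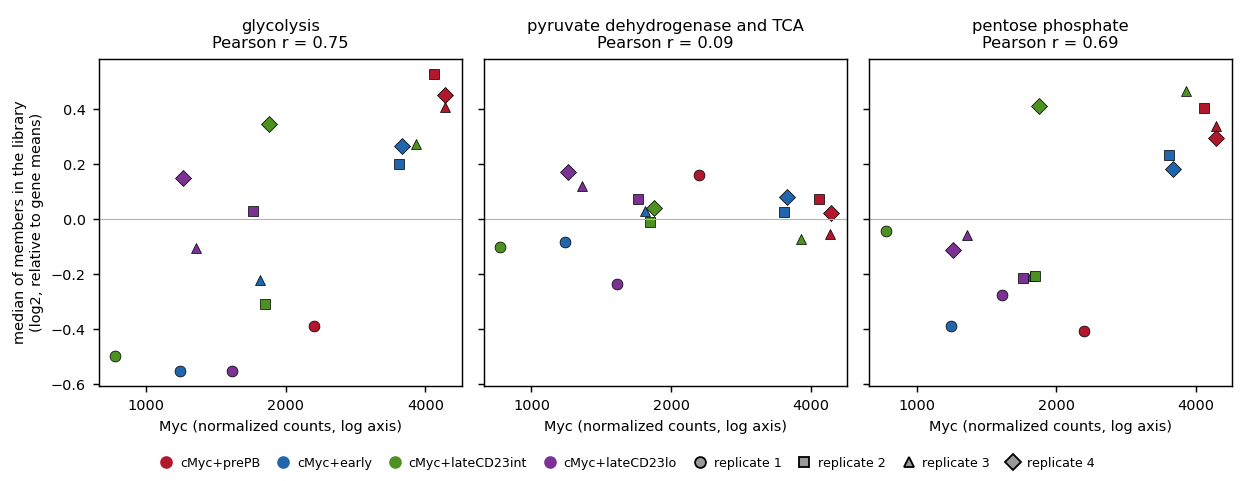
Median of the tested members of each pathway in a library (log2, relative to the mean of each gene over the 16 libraries) against the normalized count of *Myc* (log axis), colored by subpopulation and shaped by library number. Glycolysis (r = 0.75) and pentose phosphate (r = 0.69) medians are higher in libraries with more *Myc*, while the pyruvate dehydrogenase and TCA medians (r = 0.09) stay within a narrow band.

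Other genes that feed or steer these pathways were examined as a list of 56 further transporters, isozymes, regulators and linked enzymes, of which 37 reached the level for a test. None had an adjusted p-value under 0.05 in limma in the F test, 4 had an unadjusted p-value under 0.05 (against the 10.2% given above), and edgeR and DESeq2 called 0. These 4 were *Pdk3*, *Aco1*, *Idh1* and *Slc2a6*, with unadjusted p-values of 0.00953 to 0.0427. In the pairwise comparisons limma and edgeR called 0 as well, and DESeq2 called *Pdk3* and *Aco1*. The pyruvate dehydrogenase kinase *Pdk3* had means of 2305 ± 449 for cMyc+prePB and of 1391 ± 198 to 1796 ± 365 for the others (normalized counts, SD, n = 4). From cMyc+early to cMyc+prePB its log2 fold change was 0.72 ± 0.19 (SE; limma adjusted p = 0.19, DESeq2 0.0245, with 1.05% of all genes called in DESeq2) and against the other 3 it was 0.53 ± 0.15 (0.175, DESeq2 0.0441, with 1.8%). From cMyc+lateCD23lo to cMyc+prePB, the cytosolic aconitase *Aco1* differed by 1.095 ± 0.326 on the log2 scale (SE; limma adjusted p = 0.178, DESeq2 0.0326, against the 2.16% given above). The glucose transporter *Slc2a1* had means of 265 ± 150 for cMyc+prePB, 299 ± 167 for cMyc+early, 260 ± 158 for cMyc+lateCD23int and 113 ± 39 for cMyc+lateCD23lo (normalized counts, SD, n = 4). From cMyc+lateCD23lo to cMyc+prePB its log2 fold change was 1.07 ± 0.65 (SE; limma adjusted p = 0.499). The lactate transporter *Slc16a1* went from 1376 ± 444 in cMyc+prePB through 1316 ± 481 and 946 ± 270 to 804 ± 439 in cMyc+lateCD23lo, with a log2 fold change of 0.97 ± 0.43 (0.357). *Hif1a*, a regulator of glycolysis genes under low oxygen, had means between 1599 and 1962 in the 4 subpopulations and an F test adjusted p of 0.917.

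Several members share sequence with other annotated genes, so part of their reads may be split. Copies with at least 95% identity over 300 bases were found for *Eno1*, where the copy *Eno1b* had a mean of 3050 normalized counts beside 14583 for *Eno1*. The 3 *Eno1* copies in the table summed to 32.2% of *Eno1*. For *Pgk1*, the copy *Pgk1-rs7* had 534 beside 6499, and its copies summed to 9.65%. The 76 *Gapdh* copies in the table summed to 4.70% of *Gapdh*. Exons of *Idh3b* overlap those of *Nop56*, with a mean of 13918 beside 2126 for *Idh3b*, and those of *Pfkp* and *G6pdx* overlap *Pitrm1* and *Ikbkg*.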

How the data were processed

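RNA from 16 sorted samples was made into libraries with a low-input kit and sequenced on a HiSeq. Per the labels, the processing notes name Trimmomatic 0.36, STAR 2.5.2a, RSEM 1.2.31 and DESeq2 1.20.0 with GRCm38, and the annotation release is not given in the sources used here. The authors deposited a normalized signal per gene and library, that is, counts divided by 1 size factor per library, and whole reads were recovered for 100% of values (tolerance 0.001). Columns were assigned by the names in the labels.

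Genes with a mean of at least 10 were fitted on log2(value + 1), a scale that understates the change of low genes, in limma 3.58.1 (R 4.3.3) with a trended prior, 1 model over 4 subpopulations, an F test and 7 contrasts. edgeR 4.0.16 and DESeq2 1.42.0 were run on the recovered reads. A gene at or under 3 reads (2.48 to 3.23 normalized counts) was treated as not measurable, a floor for counting error only, since no molecular identifiers mark which reads are copies of 1 molecule. Lengths, GC content, overlaps and coordinates are from GENCODE M21, and promoters are from RefSeq. Levels between genes are compared per kb of the mean protein-coding transcript. The tests were tried on simulated data, whose settings and outcome are not given here. Alternatives were other pseudocounts, filters, size factors, lengths and priors, the replicate block, only the groups compared and leaving out libraries. The members and lists were chosen with earlier results of these data known. Values per library are given for members with an adjusted p-value under 0.05 (none), the 8 with the smallest F test p-values and the hexokinase, phosphofructokinase and lactate dehydrogenase families. *Slc2a1*, *Slc16a1*, *Hif1a* and *Myc* were named whatever their values, and other named values were chosen after they were seen.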

Additional observations from a re-analysis of the deposited data

Results flagged for a closer look

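In 155 groups of 4 libraries, 1 per member and subpopulation, 10 had a single library far from the other 3 by Dixon's ratio at 95%, where chance alone would give about 1 in 20. Of these, 6 concern a library numbered 1. In cMyc+prePB replicate 1, *Mdh1* was high at 20370 normalized counts (others 12616 to 13696), *Mdh2* low at 14560 (17112 to 17383) and *Tkt* low at 1745 (4387 to 4665). In cMyc+early replicate 1, the mutase *Pgam1* was low at 3811 (6912 to 7529) and the epimerase *Rpe* high at 2620 (1812 to 1890). In cMyc+lateCD23lo replicate 1, *Rpe* was low at 1768 (2390 to 2495). In other numbers, *Idh3b* was high at 2387 in cMyc+prePB replicate 4 (1965 to 2034), *Suclg1* high at 4598 in cMyc+prePB replicate 2 (3768 to 3838), the citrate synthase *Cs* high at 3606 in cMyc+lateCD23int replicate 3 (2367 to 2534) and *Pgd* low at 540.4 in cMyc+lateCD23int replicate 2 (1317 to 1368).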

How the results depend on the processing

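The count of 0 called members per comparison stayed at 0 in 95 of 102 values under other pseudocounts, filters, size factors, tools and sample choices, in all 128 that left out 1 library and in all 8 without the 4 libraries numbered 1. With the replicate block it was 1 between cMyc+prePB and cMyc+lateCD23lo and 1 for cMyc+prePB against the other 3, in limma (*Ldha*, adjusted p = 0.0232 and 0.0306) and in edgeR with the block (*Ldha*, 0.0276 and 0.0324). The replicate block otherwise changed no call of a member. The labels do not say that the numbers pair the samples, and 5 of 24 same-numbered pairs had deviations correlated over 0.1 (range -0.129 to 0.174), where all were required for a pairing. Of these, 4 were among the 6 pairs of number 1, and 10 of 16 libraries were closest to their own number, all 4 numbered 1 among them. DESeq2 gave 1 between cMyc+early and cMyc+lateCD23lo, 1 between cMyc+prePB and cMyc+lateCD23int and 1 between cMyc+prePB and cMyc+lateCD23lo. Over all genes, 33 were called in the last comparison by limma, 31 by edgeR, 270 by DESeq2 and 192 with the block. The cause was not tested.

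Glycolysis medians for the 4 comparisons of cMyc+prePB kept their sign in every setting, between 0.10 and 0.49 against cMyc+early, 0.19 and 0.50 against cMyc+lateCD23int, 0.18 and 0.52 against cMyc+lateCD23lo and 0.21 and 0.52 against the other 3. Over all comparisons, 44 of 627 pathway medians changed sign, 23 of them for pyruvate dehydrogenase and TCA, whose medians lay near 0. The pentose phosphate median between cMyc+prePB and cMyc+early moved from 0.02 to 0.46 without cMyc+prePB replicate 1 and to 0.36 without the libraries numbered 1, a setting added after the data were seen. Without length scaling the *Sucla2* share was 78.0%. *Pfkm* was at or under 3 reads in part of the libraries and *Ldhb*, which was not tested, in all 16. A difference was not detectable there at this depth, and the other 37 members were above 3 reads in all 16.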
